A study of Mus musculus with 3 samples.

Results

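Of the 24586 DMC1 hotspots in the deposited table, 563 were autosomal sites of the humanized PRDM9 allele at which nearly all H3K4me3 lay on the CAST homologue. They are called CAST-marked HUM sites here. They were chosen by the authors' PRDM9 class (HUM), by absence of a flagged overlap with a PRDM9-independent H3K4me3 peak, and by an H3K4me3 B6 share under 0.1, the B6 share being the part of the summed signal of both homologues that fell on B6. They made up 6.54% of the 8605 autosomal HUM sites away from such peaks, and 6.96% of the 8091 of these that had an H3K4me3 share. The animals were F1 males of a cross between C57BL/6J (B6) and CAST/EiJ (CAST), with a humanized allele (HUM) and the CAST allele of Prdm9, and all libraries came from whole testis. DMC1 ChIP-seq was made from a male of 10 weeks and H3K4me3 ChIP-seq from an adult male. The series holds 1 library per assay, so the differences have no replicate check, and sites were not used as replicates for a p-value. The headers name Li et al. as the source of the H3K4me3 reads, so the library and animal behind that mark are not certain. An MNase-seq library of the series was not used here.

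PRDM9 is a meiotic histone methyltransferase whose zinc fingers bind DNA motifs. It deposits H3K4me3 on the flanking nucleosomes, and double-strand breaks form where it is bound. The recombinase DMC1 coats the resected single-stranded ends and guides them to the homologue for repair, so DMC1 ChIP-seq reads breaks under repair. In a hybrid, single-base differences between the parental genomes can leave a motif intact on 1 homologue and altered on the other, and both marks can then be counted per homologue. In humanized mice the zinc fingers are those of human PRDM9, which did not evolve with either mouse genome. The signals are averages over many cells of whole testis, so more cells with a break at a site and a longer stay of DMC1 in each cell cannot be told apart.

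RefSeq promoter windows (GRCm38.p6, 250 bases before to 50 after a start) had their start within 500 bases of a DMC1 centre at 2 CAST-marked HUM sites. These windows are printed to show the sequence around those starts, and only the window of Gm40954 holds the DMC1 centre. Both are the B6 reference sequence, and so belong to the homologue that carried little of either mark. The CAST sequence was not used here. The window of Gm40954, a long noncoding RNA gene, spans chr13:53850039-53850338 on the minus strand, and the 21 capitals mark the bases around the DMC1 centre at 53850101, which lay 13 bases before the start:
Gm40954: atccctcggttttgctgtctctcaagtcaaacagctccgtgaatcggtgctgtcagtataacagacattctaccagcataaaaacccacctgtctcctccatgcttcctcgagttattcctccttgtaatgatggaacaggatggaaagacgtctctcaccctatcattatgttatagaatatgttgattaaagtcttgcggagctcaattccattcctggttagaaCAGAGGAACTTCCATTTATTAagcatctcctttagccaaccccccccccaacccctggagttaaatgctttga
The window of Gm10318, a protein-coding gene, spans chr10:77852609-77852908 on the plus strand. Its start lies 487 bases downstream of the DMC1 centre at 77852372, which is inside Tspear and outside the window. The capitals mark the 1 match to CCTCCCT on either strand:
Gm10318: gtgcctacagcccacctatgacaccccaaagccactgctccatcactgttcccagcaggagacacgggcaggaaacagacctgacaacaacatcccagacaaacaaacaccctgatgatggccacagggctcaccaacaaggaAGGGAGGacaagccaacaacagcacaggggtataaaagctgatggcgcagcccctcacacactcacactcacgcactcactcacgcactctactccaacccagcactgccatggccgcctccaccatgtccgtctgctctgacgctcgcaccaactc

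CCTCCCT is a core motif known from human recombination hotspots. The Gm40954 window held no match to it, and 15.4% of the 32851 promoter windows held at least 1 on either strand, so the match at Gm10318 is a description of that window. The site at Gm40954 had a DMC1 signal of 191 and an H3K4me3 enrichment of 28.4, each in the units of the authors' peak callers, with B6 shares of 0.0166 for DMC1 and 0.0472 for H3K4me3. The site at Gm10318 had a DMC1 signal of 190 but a lower H3K4me3 enrichment of 6.08, with B6 shares of 0.0120 and 0.0857. These sites thus had the same DMC1 to within 1 unit at very different H3K4me3.

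The H3K4me3 share that chose the sites had a median of 0.0602 among them (quartiles 0.0409 and 0.0802), and it was exactly 0 at 17 sites, above 0 and under 0.05 at 187, and from 0.05 up to the threshold at 359. The 5 nearest under the threshold, among them sites in or near Ifit2, Sult1e1, Hace1 and Septin9, had H3K4me3 shares of 0.0989 to 0.0995, DMC1 signals of 41.8 to 345 and DMC1 shares of 0.00668 to 0.0467. The nearest HUM sites outside it, in Nck2, Stk36, Dnm3, Rsrc1 and Palmd, had a share of exactly 0.1, DMC1 signals of 16.2 to 409 and DMC1 shares of 0 to 0.08. Sites on either side of the threshold therefore overlapped in DMC1 signal and in DMC1 share.

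DMC1, which the rule did not use and which came from another library, lay on the same homologue. A DMC1 share was given at 554 of the 563 sites, and 527 of these, 95.1% (exact 95% binomial interval 93.0% to 96.8%, counting error only), had a DMC1 share under 0.1. The same held at 14.3% of all autosomal sites with a DMC1 share. The median DMC1 share was 0.0180 (quartiles 0.0102 and 0.0343), against 0.438 (0.333 and 0.546) at the HUM sites marked on both homologues, which are those with an H3K4me3 share of 0.3 to 0.7. At 462 of the 554 CAST-marked HUM sites, 83.4% (80.0% to 86.4%), the DMC1 share was lower than the H3K4me3 share of the same site, compared with 56.3% of all autosomal sites, 67.4% of the HUM sites marked on both homologues and 82.5% of the CAST-allele sites with an H3K4me3 share under 0.1. The H3K4me3 share in this comparison is the one that chose the sites, so the count is a description. The DMC1 share was exactly 0 at 33 sites, whose median DMC1 signal was 67.0. Shares of exactly 0 are not set beside those of all autosomal sites, so this count is a description.

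**Figure D1:**
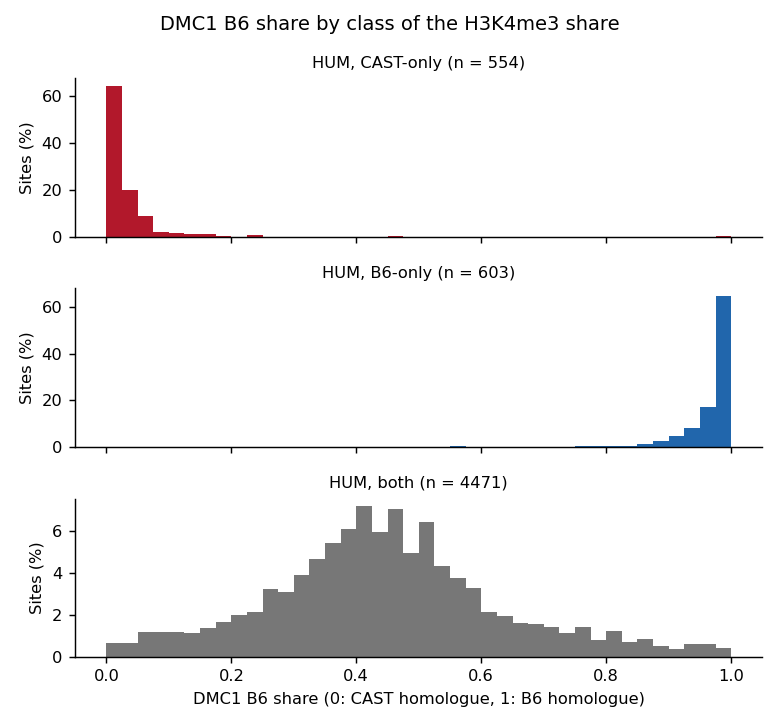
Histograms of the DMC1 B6 share (x axis, 0 for the CAST and 1 for the B6 homologue) at CAST-marked HUM sites (titled HUM, CAST-only), HUM sites with H3K4me3 on the B6 homologue, and HUM sites marked on both, as percent of sites in each class (y axis, with its own scale in each panel). The CAST-marked sites pile up near 0, with a median of 0.0180, the B6-marked sites near 1, with a median of 0.984, and the sites marked on both spread around 0.438.

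In absolute terms little DMC1 was left on the B6 homologue. With each signal split by its B6 share, the median DMC1 signal of CAST-marked HUM sites was 115 on the CAST homologue and 2.13 on the B6 homologue (quartiles 1.36 and 3.55), with the split of H3K4me3, 9.78 on the CAST and 0.597 on the B6 homologue, fixed by the rule. The amount of DMC1 on the B6 homologue moved less than the total did. It was 1.54 at the lowest 25% of sites by DMC1, whose median total was 33.3, and 3.74 at the highest 25%, whose median total was 343. At the mirror class, the 615 HUM sites with an H3K4me3 share over 0.9, the DMC1 signal left on the CAST homologue was 1.55.

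CAST-marked HUM sites carried more DMC1 than HUM sites marked on both homologues, without more H3K4me3. The median DMC1 signal was 115 (quartiles 55.6 and 234; interval of the median 103 to 131, from binomial order statistics over sites) at the 563 CAST-marked HUM sites and 54.8 (25.0 and 133; interval 52.6 to 56.7) at the 4656 sites marked on both. This is a difference of 1.07 on the log2 scale, or 2.10-fold, and CAST-marked sites were higher on 19 of 19 autosomes. The size of this difference depended on the threshold, and was 0.51 with the H3K4me3 share threshold at 0.2. It was 0.64 with DMC1, the compared signal itself, at or above its lower quartile over autosomal sites. With H3K4me3 at or above its lower quartile it was 0.92. The strongest sites, however, were not CAST-marked: DMC1 reached 724 among them and 1202 among the sites marked on both. Of the CAST-marked HUM sites, 36.6% (32.6% to 40.7%) were among the top 25.0% of all autosomal sites by DMC1, and 18.9% of all 8605 HUM sites were. The share was 29.4% of HUM sites with an H3K4me3 share over 0.9. For CAST-allele sites it was 39.7% with an H3K4me3 share under 0.1 and 64.5% with one over 0.9.

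H3K4me3 enrichment had a median of 10.5 (7.13 and 16.1) at CAST-marked HUM sites and 12.2 (6.82 and 22.3) at HUM sites marked on both, a log2 difference of -0.21. It reached 42.5 and 118 in these classes. Both classes overlapped over most of their range, and the levels of the CAST-marked sites ended lower. This mark comes from the library that chose the sites, so its level is a description.

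The DMC1 signal per unit of H3K4me3 has no absolute meaning, because the marks are in different units, but it can be compared between sites. It had a median of 10.8 (6.60 and 16.3) at CAST-marked HUM sites and 5.07 (3.17 and 7.84) at HUM sites marked on both, a log2 difference of 1.09 or 2.14-fold. CAST-marked sites were higher on 19 of 19 autosomes, by 0.67 on chromosome 11 to 1.51 on chromosome 15. At matched H3K4me3, compared within 18 bins that held 560 of the 563 sites, the difference was 1.22. In all, 54.0% (49.8% to 58.2%) of CAST-marked HUM sites were in the top 25.0% of autosomal sites by this ratio, and 14.3% of the HUM sites marked on both were.

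**Figure D2:**
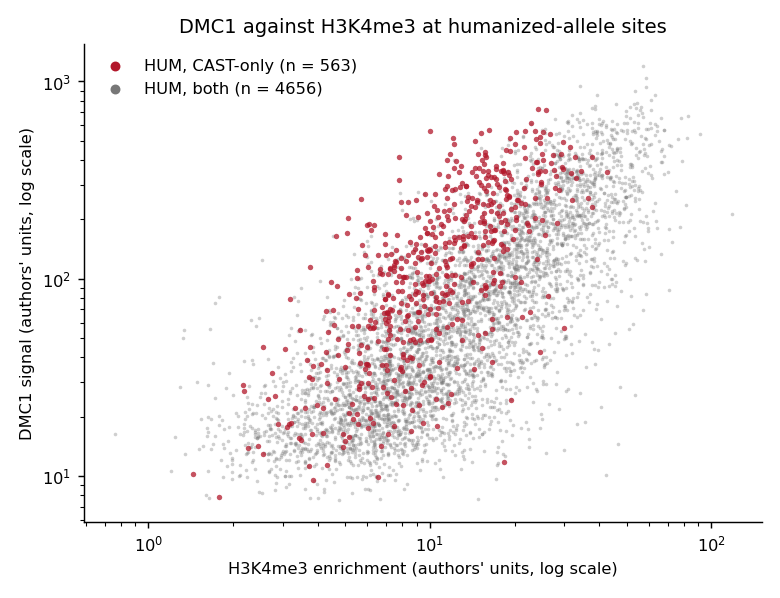
DMC1 signal (y axis) against H3K4me3 enrichment (x axis), both on log scales in the authors' units, with 1 point per CAST-marked HUM site (red, HUM CAST-only in the legend, 563) or HUM site marked on both homologues (grey, 4656). The red points lie in the upper part of the grey cloud at a given H3K4me3, and they stop at an H3K4me3 of 42.5 while the grey points reach 118.

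Part of this comparison sets 1 marked homologue against a sum over 2, so the CAST homologue was also taken alone. On it, the median DMC1 signal was 115 at CAST-marked HUM sites and 31.2 at HUM sites marked on both, 3.70-fold. H3K4me3 on the CAST homologue, over the same sites with a DMC1 share, was 10.0 and 6.11, 1.64-fold. The ratio of DMC1 to H3K4me3 on the CAST homologue was higher at the CAST-marked sites, 2.01-fold. The H3K4me3 part of these values uses the share that chose both classes, so the 1.64-fold and 2.01-fold values are descriptions set in part by that choice. CAST-marked HUM sites were 6.97% of the HUM sites with a DMC1 share, and they held 10.7% of the summed DMC1 of those sites, 19.1% of the part on the CAST homologue and 0.472% of the part on the B6 homologue.

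The gain in DMC1 per H3K4me3 was graded along the H3K4me3 share and did not start at the threshold. In steps of 0.1 of the H3K4me3 share, the median ratio of HUM sites was 10.8 under 0.1, 7.70 from 0.1 to 0.2, 6.08 from 0.2 to 0.3 and 5.24 from 0.3 to 0.4. It then stayed between 4.74 and 5.28 up to a share of 0.8, and was 5.88 from 0.8 to 0.9 and 7.91 from 0.9 upwards. The DMC1 signal itself took another course. Its median was 115 under 0.1, 56.2 from 0.1 to 0.2, 37.7 from 0.2 to 0.3 and 47.7 from 0.3 to 0.4. Median H3K4me3 in the same steps was 10.5, 7.53, 7.07 and 9.11. Towards both ends the median DMC1 share was more extreme than the H3K4me3 share. At sites with an H3K4me3 share of 0.2 to 0.3 the median DMC1 share was already 0.0873, and at a share of 0.1 to 0.2 it was 0.0374. In these steps, CAST-marked HUM sites are thus the end of a continuous range in the ratio and in the DMC1 share. Within them the course was not even. The 17 sites with an H3K4me3 share of 0 had a median ratio of 9.02 and a median DMC1 share of 0.0214. These medians were 12.6 and 0.0149 above 0 and under 0.05, and 10.4 and 0.0207 from 0.05 up to the threshold. Many sites just beyond the threshold had DMC1 almost entirely on the CAST homologue as well.

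**Figure D3:**
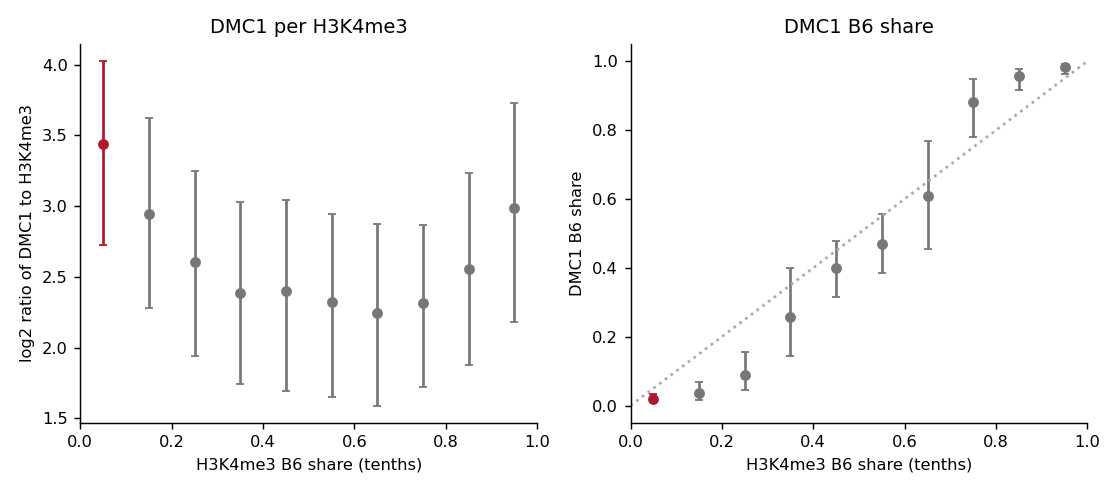
Medians (points) and quartiles (bars) over HUM sites in steps of 0.1 of the H3K4me3 B6 share (x axes), for the log2 ratio of DMC1 to H3K4me3 (left) and the DMC1 B6 share (right, with a dotted line where both shares are equal). CAST-marked sites are red. The ratio has a log2 median of 3.44 at the CAST end, 2.24 at a share of 0.6 to 0.7 and 2.98 at the B6 end.

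The HUM sites marked on the B6 homologue had less DMC1 per H3K4me3. H3K4me3 was similar, with a median of 10.5 (7.13 and 16.1) at CAST-marked HUM sites and 10.6 (7.46 and 16.2) at HUM sites with H3K4me3 on the B6 homologue. DMC1 was higher at the CAST-marked sites, with a median of 115 at CAST-marked and 82.6 (35.7 and 189; interval of the median 73.8 to 91.1) at B6-marked HUM sites, 1.40-fold. The log2 ratio of DMC1 to H3K4me3 was higher at CAST-marked sites by 0.45, or 1.37-fold, and by 0.40 at matched H3K4me3. It was higher on 17 of 19 autosomes, and lower on chromosomes 11 and 18, with a range over autosomes of -0.20 to 1.15. The DMC1 shares were about equally extreme, with a median of 0.0180 at CAST-marked sites and 0.984 at B6-marked sites.

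**Figure D4:**
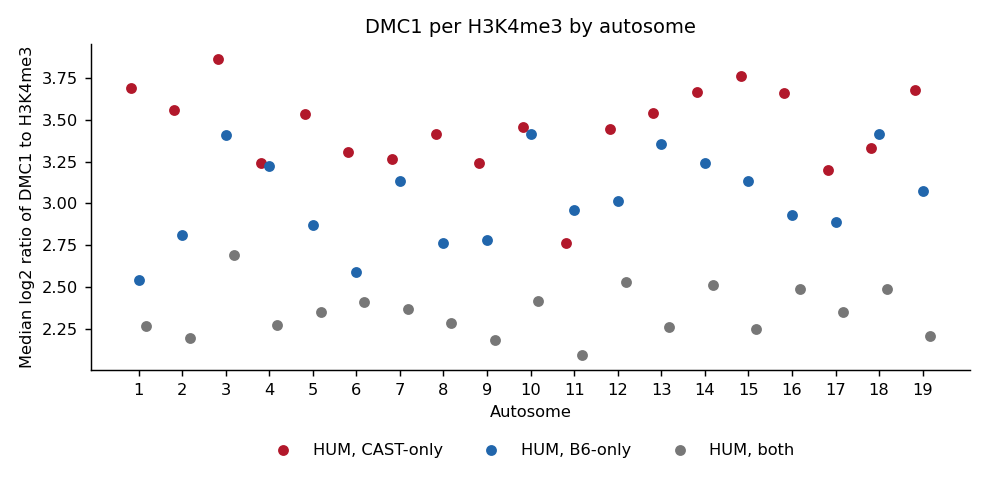
Median log2 ratio of DMC1 to H3K4me3 (y axis) on each autosome (x axis) at CAST-marked HUM sites (red, HUM CAST-only in the legend), B6-marked HUM sites (blue) and HUM sites marked on both homologues (grey). Red lies above grey on 19 of 19 autosomes and above blue on 17, chromosomes 11 and 18 being the exceptions.

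Set against sites of the CAST PRDM9 allele with the same homologue marked, CAST-marked HUM sites were slightly lower. Median DMC1 was 115 at CAST-marked HUM sites and 128 (61.2 and 251; interval 114 to 147) at the 403 CAST-allele sites with an H3K4me3 share under 0.1. Median H3K4me3 was 10.5 and 10.8 in the same order. The log2 ratio of CAST-marked HUM sites differed by -0.23, or 0.850-fold, and by -0.22 at matched H3K4me3. It was higher on 5 and lower on 14 of the 19 autosomes, from -0.77 to 0.45, so single autosomes gave either direction. The 1224 CAST-allele sites with an H3K4me3 share over 0.9 went further: median DMC1 was 115 at CAST-marked HUM sites and 262 (112 and 480) at these sites, and median H3K4me3 was 10.5 and 17.8. The log2 ratio of CAST-marked HUM sites differed from theirs by -0.38, by -0.24 at matched H3K4me3, and was lower on 19 of 19 autosomes. This comparison changes both the PRDM9 allele and the marked homologue. Within the CAST allele, the median ratio was 12.7 (7.51 and 19.4) at CAST-marked and 14.1 (9.24 and 20.7) at B6-marked sites. That is the reverse order of the humanized allele, with overlapping quartiles and without matching of H3K4me3. The DMC1 share was under 0.1 at 95.1% of CAST-marked HUM sites and at 94.7% (92.1% to 96.7%) of the CAST-allele sites with an H3K4me3 share under 0.1.

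Within the CAST-marked HUM sites, DMC1 was higher where H3K4me3 was higher, with a Spearman correlation of 0.714 across the 563 sites, which share the same libraries and are not independent replicates. The median DMC1 signal was 42.3 in the lowest 25% of sites by H3K4me3, 87.1 and 166 in the middle groups and 264 in the highest 25%. DMC1 per H3K4me3 differed less, with medians of 8.72, 9.83, 12.7 and 12.4 in the same order. Sites inside protein-coding genes had a median DMC1 of 126 (57.4 and 245) and a ratio of 11.1, and those between genes had 105 (47.7 and 216) and 10.2, with overlapping quartiles. The 129 sites with another hotspot within 10 kb had a median DMC1 of 144 (70.1 and 261), against 107 (51.7 and 210) at the other 434.

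The strongest CAST-marked HUM site lay at position 31141258 of chromosome 8, 7.94 kb outside Rnf122, which encodes a ubiquitin ligase. Its DMC1 signal was 724 and its H3K4me3 enrichment 24.3. The next, inside Psmc1, an ATPase subunit of the proteasome cap (chromosome 12, 100113101), had DMC1 of 719 and H3K4me3 of 25.9. Inside Smc5, which encodes a subunit of the SMC5/6 complex of chromosome maintenance (chromosome 19, 23225282), DMC1 was 618 and no H3K4me3 at all was assigned to B6, the share being 0. The remaining 7 had DMC1 signals of 545 to 566. They lay inside Egflam, a gene of the retinal synapse (chromosome 15, 7225703), inside Cab39, a scaffold of the LKB1 kinase (chromosome 1, 85818070), 30.2 kb from Plppr5 (chromosome 3, 117544364), 412 kb from 2610301B20Rik (chromosome 4, 10462100), inside Ssx2ip, a centrosomal protein gene (chromosome 3, 146423395), inside Fto, an RNA demethylase gene (chromosome 8, 91537979), and inside Arrb1, which encodes beta-arrestin (chromosome 7, 99600781). The DMC1 shares of these 10 sites ran from 0.00258 at Fto to 0.0318 at Egflam, and 7 of the 10 lay inside a gene.

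The ratio of DMC1 to H3K4me3 varied widely even among the better marked sites, those at or above the median H3K4me3 of CAST-marked HUM sites. The highest was 43.0 at a site between genes, 644 kb from Gpc5, a glypican gene (chromosome 14, 114448628), with DMC1 of 519 and H3K4me3 of 12.1. It was followed by 39.7 inside Ust, which encodes uronyl sulfotransferase (chromosome 10, 8320815), 36.6 at a site 27.8 kb from Dnajc15, a mitochondrial co-chaperone gene (chromosome 14, 77798407), and by the sites in Arrb1 and Egflam named above, the first of these with 35.8. The 5 lowest ratios ran from 0.647 to 1.87. The lowest of all was inside Sv2c, which encodes a synaptic vesicle protein (chromosome 13, 96002874), with DMC1 of 11.9 and H3K4me3 of 18.3. The next was inside Rad18, a ubiquitin ligase gene of post-replication repair (chromosome 6, 112636158), with DMC1 of 24.2 and H3K4me3 of 19.4. The others lay 535 kb from Brinp3 (chromosome 1, 145960901; ratio 1.70), 1934 kb from Pik3c3 (chromosome 18, 28331337; ratio 1.72) and 204 kb from Satb1 (chromosome 17, 51532585; ratio 1.87). At similar H3K4me3, DMC1 at single CAST-marked sites thus ranged over more than an order of magnitude.

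The 27 sites with a DMC1 share of 0.1 or more were mostly weak. Their median DMC1 was 22.1 and their median H3K4me3 5.16, against a median DMC1 of 127 at the 527 sites under 0.1, and 18 of the 27 were among the lowest 25% by H3K4me3. A site 3.78 kb outside Npc1, which encodes a lysosomal cholesterol transporter, went against its H3K4me3 (chromosome 18, 12240287). Its DMC1 share was 0.991, with DMC1 of 257, while its H3K4me3 share was 0.0890, with H3K4me3 of 36.4, so both marks were strong and lay on opposite homologues. It was the only CAST-marked HUM site with a DMC1 share over 0.5. The next hotspot, a CAST-allele site 29.9 kb away inside Ankrd29, had both marks on the CAST homologue, with shares of 0.0184 for DMC1 and 0.0508 for H3K4me3. The Sv2c site had the second highest DMC1 share, 0.467, and the sites in Dapk2, a death-associated kinase gene (chromosome 9, 66185850), Pak7, a p21-activated kinase gene (chromosome 2, 136108343), and Kdm5a, a histone H3K4 demethylase gene (chromosome 6, 120392245), followed with 0.238, 0.231 and 0.231. DMC1 at the last 3 was 11.4, 14.3 and 15.1. At the other end, with a share of exactly 0, the first 5 in genome order lay in Eya1 (DMC1 167), Plekhm3 (61.5), Hdac4 (23.2), Etl4 (32.4) and Rabl6 (185).

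CAST-marked HUM sites were spread over 321 protein-coding genes and the space between them. Of the 563 sites, 331 lay inside a gene body, 58.8% (54.6% to 62.9%), compared with 53.9% of all autosomal sites and 56.7% of the 8605 HUM sites, so the share was close to that of the humanized allele in general. With 5 kb on either side of the gene it was 63.6%, against 60.2% of all autosomal sites. Only Adk, which encodes adenosine kinase (chromosome 14), held 3 sites, and 14 genes held 2. Other classes are not set beside these counts per gene, so they are descriptions. The Adk sites, at 21132423, 21245948 and 21316444, had DMC1 of 144, 46.8 and 62.8, and all their DMC1 shares were under 0.05.

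The listed meiotic genes held 3 CAST-marked HUM sites, too few to compare shares. Of 28 autosomal genes of break formation and repair, 2 held a CAST-marked HUM site. That is 0.355% of the CAST-marked HUM sites, and 0.0973% of all autosomal sites (23 sites) lay in or within 5 kb of these genes. One lay inside Mei4, which is required for break formation (chromosome 9, 81891378), with DMC1 of 191 and a DMC1 share of 0.0116. Of 15 chromosome axis or synaptonemal complex genes, Rad21l, which encodes a meiotic cohesin subunit, held 1 (chromosome 2, 151646356; DMC1 208, DMC1 share 0.00376), which is 0.178% of the CAST-marked HUM sites against 0.0381% of all autosomal sites (9 sites). The 16 long neuronal genes held 6 sites, 1.07% of the CAST-marked HUM sites against 0.715% of all autosomal sites, with 2 in Ptprd and 1 each in Macrod2, Magi2, Csmd3 and Lsamp. Their DMC1 ran from 48.8 in Ptprd to 176 in Magi2. No site lay in or near the 11 genes of Sertoli and Leydig cells or the 8 spermatid genes, which held 4 and 2 of all autosomal sites.

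By chromosome, CAST-marked HUM sites made up 3.13% to 8.33% of the HUM sites. The lowest share was on chromosome 17, with 11 of 351 sites (interval 1.57% to 5.54%), where B6-marked HUM sites were 35 of 351 (9.97%, interval 7.04% to 13.6%). The highest was on chromosome 9, with 38 of 456 (5.96% to 11.3%), and there B6-marked sites numbered 27. CAST-marked sites outnumbered B6-marked ones on 6 autosomes and were outnumbered on 12. Chromosome 11 had the lowest median DMC1 of CAST-marked sites, 55.3, and chromosome 3 the highest, 186. The DMC1 medians of other hotspots on these chromosomes are not set beside them, so both are descriptions.

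CAST-marked HUM sites stood among other hotspots much as other sites did. The nearest other hotspot lay at a median of 26.6 kb (28.2 kb for all autosomal sites), and 22.9% had one within 10 kb, compared with 21.4%. It was a CAST-allele site in 51.7% of cases and a HUM site in 42.3%, against 52.4% and 39.2% for all autosomal sites. Where that neighbour lay within 10 kb, its own DMC1 share was under 0.1 at 19 of 61 HUM neighbours with a share, 31.1% (exact interval 19.9% to 44.3%), against 19.0% of the HUM sites. Of the 19, 6 were themselves CAST-marked HUM sites. These 6 form the pairs near Rnd3, at Vwf and in Ust named below, with both sites of each pair counted. The interval treats them as independent, so the share is a description. For CAST-allele neighbours the DMC1 share was under 0.1 at 4 of 52, 7.69% (2.14% to 18.5%), against 14.3% of all autosomal sites. These include the HUM sites, and the share over CAST-allele sites alone was not computed. A DMC1 share over 0.9 was found at 8 of the 61 HUM and 12 of the 52 CAST-allele neighbours. Shares over 0.9 were not counted over all sites, so these counts are descriptions only. The closest pair of CAST-marked HUM sites lay 2.22 kb apart near Rnd3 (chromosome 2, 51050390 and 51052607), with DMC1 of 150 and 92.7. The next pairs lay 7.30 kb apart at Vwf, which encodes von Willebrand factor, 9.97 kb apart in Ust, 11.1 kb apart at Aqp6, a water channel gene, and 14.6 kb apart at Reep3. DMC1 of the Vwf pair was 542 and 268. Successive CAST-marked HUM sites were otherwise far apart, at a median of 2538 kb, and 19 of 544 gaps were under 100 kb. Gaps within other classes are not set beside these values, so they are descriptions.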

How the data were processed

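The build was mm10 and the aligner BWA, per the submitters' processing notes, which give its version as 0.7.15 for H3K4me3. mm10 is a B6 genome, and any effect of that on the B6 shares was not tested. Per the file headers, sites are placed at DMC1 peak centres, and the DMC1 signal and H3K4me3 enrichment (also a signal) are intensities estimated by the authors' peak callers; their scaling to depth is not stated. Per the file headers, the B6 share is the fraction of signal on the B6 homologue. They name Li et al. as the source of the H3K4me3 reads, so the library behind them is not certain. Read numbers per site are unknown, so no error of a single share was computed.

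Signals were compared on the log2 scale without a pseudocount (Python 3.11.15, pandas 2.3.3, scipy 1.17.1). Matched differences are medians within 20 equal bins of H3K4me3 with at least 5 sites of each class, weighted by the smaller class. Shares have exact Clopper-Pearson intervals and medians have binomial order-statistic intervals, both at 95% and both for counting error among sites only. The functions were checked on simulated data. Gene bodies are the 20665 autosomal protein-coding genes of RefSeq GRCm38.p6, the build of mm10; exons and introns were not assigned. Promoter windows, which the RefSeq table gives for many genes but not all, were used only where printed. The planned search for the longer human PRDM9 motif around site centres needs a genome and was not run. The gene lists matched 29 of 32 break formation and repair symbols and every symbol of the other lists.

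Sites were named by rule: the 10 strongest by DMC1, the 5 highest and lowest ratios among those at or above the median H3K4me3, the 5 highest and lowest DMC1 shares (ties in table order), the 5 nearest each side of the threshold, genes with 3 or more sites, sites at listed genes and the closest pairs. A few sites that the rule names are not reported here. The sites, lists and comparisons were chosen with earlier results of these data known.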

Additional observations from a re-analysis of the deposited data

How the results depend on the processing

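Of 76 alternative values over the 6 results, 62 stayed within the counting interval of the reported value, 14 moved beyond it and none changed sign. The results that are percentages could not change sign. The alternative that left out adjacent repeats of an H3K4me3 value removed no CAST-marked HUM site, so it could hardly move any result. For the differences, the interval holds the counting error of the CAST-marked HUM sites only, not that of the comparison class. The share of CAST-marked HUM sites with DMC1 on the CAST homologue (95.1%) was 97.5% with the H3K4me3 share threshold at 0.05, 90.2% at 0.2, and 97.8% with either H3K4me3 or DMC1 at or above its lower quartile. With the limit on the DMC1 share itself at 0.05 it was 84.3%, and at 0.2 it was 99.1%. The log2 difference in DMC1 from sites marked on both homologues (1.07) was 1.49 and 0.51 at thresholds of 0.05 and 0.2, 0.64 with DMC1 at or above its lower quartile, and 0.82 from means. The difference in log2 ratio (1.09) was 1.23 and 0.86 at these thresholds and 1.22 at matched H3K4me3. The share inside genes (58.8%) was 63.6% with 5 kb flanks. The difference in log2 ratio from B6-marked HUM sites stayed between 0.35 and 0.52, and that from CAST-allele sites between -0.34 and -0.17, over 13 alternatives each; leaving out each autosome in turn was among them. The H3K4me3 share thresholds of 0.05 and 0.2 also applied to the comparison classes marked on a single homologue. The sites marked on both homologues kept their own share limits at these thresholds. Causes were not tested. No paired analysis was possible because the series holds 1 library per assay. Read depth behind single shares is unknown, which limits weak sites most.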

Other observations

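Sites that met part of the rule are given as values. The 12 autosomal HUM sites with an H3K4me3 share under 0.1 flagged for overlap with a PRDM9-independent peak had a median DMC1 of 185 (17.3 to 529) and a median H3K4me3 of 19.4 (5.15 to 26.4), and 10 of 11 with a DMC1 share had one under 0.1. The 75 autosomal sites of class UNK, which the headers do not define, that were marked on the CAST homologue in the same way were weaker, with a median DMC1 of 27.3, a median H3K4me3 of 6.87 and a ratio of 4.87. Of the 70 with a DMC1 share, 57 (81.4%) had one under 0.1. A further 140 HUM sites away from such peaks had a DMC1 share but no H3K4me3 share, with a median DMC1 of 37.0 and a median DMC1 share of 0.394; 22 of them had a DMC1 share under 0.1 and 13 one over 0.9.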
